A study of Mus musculus with 24 samples.

Results

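Wildtype (WT) mouse liver was compared between E18.5 (E for embryonic day), shortly before birth, and P7.5 (P for postnatal day), to describe the net change in gene expression over that span. The 8 samples, 4 at each age, were taken by their titles from the 24 in the series, and 16830 genes were tested. The labels name the tissue as liver and the genotype as wildtype, with no treatment. They give neither sex nor strain and do not say whether a sample was 1 animal or a pool, so p-values measure the spread between these samples. The other samples used were 4 WT livers at P2.5, which divide the span into an earlier and a later step, and 12 livers of GCGR KO mice (lacking the glucagon receptor) of the same 3 ages, 4 at each. On every array the liver RNA was labelled with Cy5 and a pooled RNA, the Universal mouse reference, with Cy3. Values are log2 ratios of Cy5 over Cy3, so a difference of 1 is 2-fold. A gene passed the test when its adjusted p in limma (Benjamini-Hochberg over all genes tested) was under 0.05. The fit pooled the spread of all 12 WT livers, those of P2.5 included.

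Before birth the liver is a main site of blood formation and is fed with glucose through the placenta. After birth blood formation moves to bone marrow and spleen, and the suckling pup lives on fat-rich milk, so the liver makes glucose from amino acids and lactate and burns fatty acids to ketone bodies. Hepatocytes also slow their division and gain the enzymes that handle drugs, bile acids and amino acids.

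All 8 hepatocyte markers examined were well above background on all 8 arrays. Alb (albumin), Ttr, Apob, Serpina1a and Trf rose by 0.56, 0.50, 0.44, 0.34 and 0.52, while Apoa1 (0.30), Ahsg (0.38) and Hnf4a (0.04) did not pass. Between 28075 and 30460 of 39429 probes per array were well above background. Pairs of E18.5 livers correlated at 0.96 to 0.985 over genes, pairs of P7.5 livers at 0.991 to 0.992, and livers of different age at 0.866 to 0.893. The Y-linked gene Ddx3y was well above background in 1 of 4 E18.5 and 2 of 4 P7.5 livers, and the part of sex in the results was not tested. Gcgr, the glucagon receptor, stood at 5.07, 5.74, 5.28 and 4.87 at E18.5 and at 5.50, 5.61, 5.65 and 5.65 at P7.5. Those values overlap, and the difference of 0.36 ± 0.18 (SE) did not pass (adjusted p = 0.125).

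Of the 16830 genes, 7171 passed the test of P7.5 against E18.5 (42.6%). Of these 4291 were higher at P7.5 (25.5% of all genes) and 2880 lower (17.1%). A change of at least 2-fold was seen in 892 higher genes (5.3%) and 632 lower genes (3.76%), and the 4 E18.5 and 4 P7.5 values of 7528 genes (44.7%) did not overlap. The median over all genes was 0.05. Higher genes made up 59.8% of the calls. With arrays centred on their medians in place of loess the median of all genes moved to -0.07. Then 3657 genes passed and 34.8% of them were higher. By at least 2-fold 573 were higher and 910 lower, so the balance of rises and falls depends on the scaling, also at 2-fold. On the 3 slides that held an array of each age, within-slide differences passed for 5910 genes, and without E18.5 replicate 2, the library that most often stood apart from its group, 7737 genes passed.

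**Figure D1:**
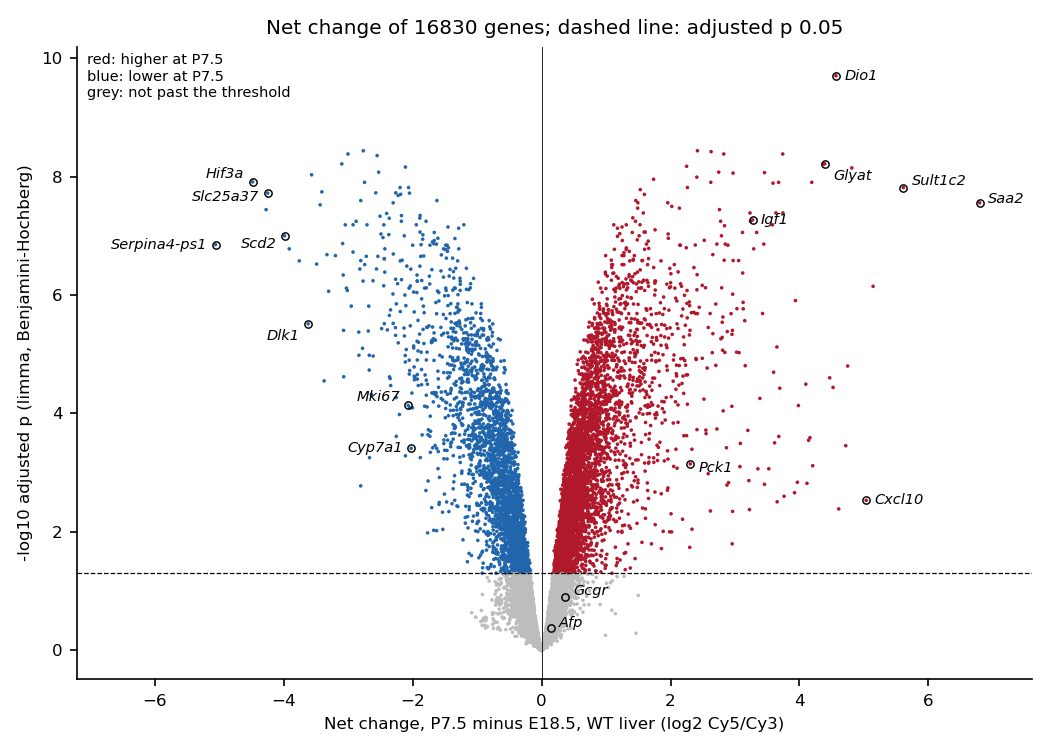
Net change of each of 16830 genes between E18.5 and P7.5 in WT liver (x axis, log2 Cy5/Cy3) against the -log10 adjusted p of limma (y axis); red points were higher and blue points lower at P7.5, and grey points lie below the dashed threshold. Saa2 at 6.79 and Serpina4-ps1 at -5.05 mark the far ends, and Afp at 0.14 and Gcgr at 0.36 lie below the threshold.

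For some genes the reference signal itself moved with the liver signal. Tested alone, Cy3 differed between the ages for 296 genes (1.76%), 76 of them by at least 2-fold, although the same reference RNA was labelled for each array. By Cy5 alone (quantile normalized between arrays) 6841 genes passed (40.6%). The ratio and Cy5 alone differed by over 1.5-fold in 148 genes, and 37 of those passed by Cy5 alone and not by the ratio. The genes concerned include several very abundant liver and blood transcripts, so the Cy5 value is given beside the ratio where they differ. Alas2, the heme synthesis enzyme of red cell precursors, shows the pattern. Its ratio in the E18.5 livers was 5.07, 5.49, 5.22 and 5.28 and in the P7.5 livers 4.89, 4.97, 5.04 and 5.37, a difference of -0.20 that did not pass. The Cy5 signal of Alas2 alone went from 14.62, 14.54, 14.38 and 15.04 to 12.34, 11.97, 12.05 and 12.30, a fall by 2.48 (adjusted p = 1.56e-06). By the ratio the ages overlap, and by Cy5 they lie far apart. The cause was not tested.

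**Figure D2:**
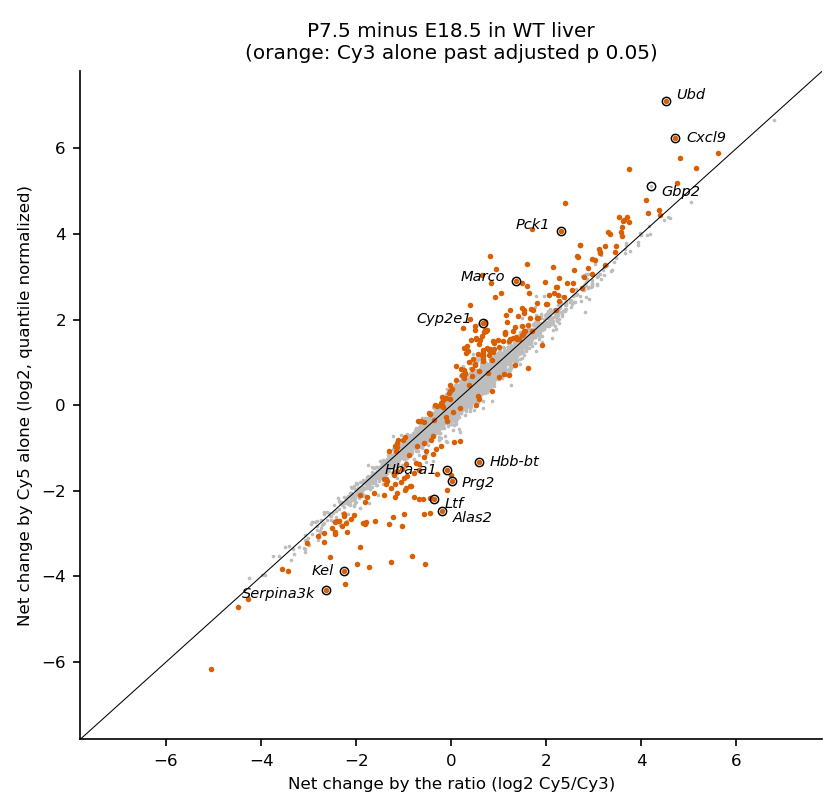
Net change of each gene by the Cy5/Cy3 ratio (x axis, log2) against the change of Cy5 alone (y axis, log2); the line marks equal values and orange points are the 296 genes whose Cy3 signal alone passed the test. Alas2, Hba-a1 and Prg2 lie near 0 on the ratio and at -2.48, -1.50 and -1.78 by Cy5 alone, and Ubd lies at 4.52 and 7.10.

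The genes of blood formation fell further than any other group examined. Of 31 tested genes of the red blood cell line 24 were lower at P7.5 and 1 higher, with a median of -2.11, and by Cy5 alone 29 were lower with a median of -2.71. In whole liver, fewer cells of a type and less RNA per cell cannot be told apart. The mean log2 ratio of the list lay between 3.88 and 4.12 in the E18.5 livers, between 2.99 and 3.47 at P2.5 and between 2.05 and 2.10 at P7.5, with no overlap between ages. Epor, the erythropoietin receptor, went from 4.01, 4.23, 4.04 and 4.14 to 2.12, 2.07, 1.97 and 1.83. Every P7.5 value lay below every E18.5 value, a 4.32-fold fall (-2.11 ± 0.09, adjusted p = 6.9e-09). Slc25a37, which carries iron into mitochondria for heme, fell 19-fold, and Ermap, a red cell membrane protein, 10.8-fold. Kel, a red cell surface protein, fell by 2.26 by the ratio and by 3.86 by Cy5 alone, but was 0.20 (not passed) in the scanner software's own log ratio.

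The promoters of Epor and Kel are shown because both genes fell by the ratio and RefSeq (build GRCm38.p6) lists a sequence for both. Slc25a37 had no entry. Each is the 250 bases before the start site, and capitals mark AGATAA or its reverse complement TTATCT, the core letters of the sites that GATA factors bind. Epor is on chr9:21963577-21963826 (minus strand), with a match 48 bases upstream, and Kel on chr6:41704326-41704575 (minus strand), with a match 50 bases upstream.
Epor: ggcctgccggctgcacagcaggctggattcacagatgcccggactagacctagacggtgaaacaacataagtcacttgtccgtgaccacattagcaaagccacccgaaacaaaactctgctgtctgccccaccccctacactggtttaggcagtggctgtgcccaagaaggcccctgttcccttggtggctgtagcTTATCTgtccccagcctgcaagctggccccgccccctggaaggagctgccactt
Kel: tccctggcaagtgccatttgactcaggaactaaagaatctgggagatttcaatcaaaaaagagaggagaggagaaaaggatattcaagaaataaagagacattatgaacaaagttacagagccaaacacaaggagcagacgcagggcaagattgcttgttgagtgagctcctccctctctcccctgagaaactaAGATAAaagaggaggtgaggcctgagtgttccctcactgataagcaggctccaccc
The letters occur on either strand in 10.3% of the 27025 mouse promoters of the same length, and a match is a description, not a binding site.

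The globins did not move as one group by the ratio. The embryonic globins Hbb-y, Hba-x and Hbb-bh1 fell by 2.04, 1.93 and 1.67. Hba-x was not well above background on any P7.5 array, so its level there is uncertain. The adult globins Hbb-b2 and Hba-a1 differed by -0.08 each by the ratio (not passed) and by -1.97 and -1.50 by Cy5 alone. Hbb-bt, an adult beta globin, was the only gene called in opposite directions, 0.59 by the ratio and -1.32 by Cy5 alone. Adult globin genes of the same kind (alpha or beta) are near-identical copies, so their probes may share signal. Of 8 heme synthesis genes 6 fell, among them Fech, which inserts the iron (-1.84), and Ppox (-1.67), while Alas1, the form of the first enzyme that liver cells use, rose by 1.57 from 1.17 ± 0.19 to 2.74 ± 0.27 (SD, n = 4).

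Other blood cells followed. Of 15 megakaryocyte and platelet genes 13 fell (median -0.85), and 5 fell with the marked spots kept, with Treml1 at -1.03 and Pf4, a platelet chemokine, at -1.16. Of 23 granulocyte and monocyte genes 15 fell and none rose (median -1.13), and by Cy5 alone 19 fell (median -1.78). Ctsg, a neutrophil protease, went from 6.58, 6.76, 6.61 and 6.25 to 3.64, 4.07, 3.93 and 3.82, a 6.44-fold fall without overlap (adjusted p = 4.05e-06). Ltf, lactoferrin of neutrophil granules, did not pass by the ratio (-0.36) and fell by 2.20 by Cy5 alone. Among 18 B and T cell genes 8 fell and 5 rose, where 17.1% of all genes fell and 25.5% rose. The B cell genes Vpreb3 and Cd79b fell by 1.37 and 1.14, and Cd3d and Cd3g, parts of the T cell receptor complex, rose by 2.12 and 1.78.

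The resident cells of the liver changed less. Of 16 Kupffer cell genes 9 rose and none fell (median 0.42). Timd4, a receptor for dying cells on resident macrophages, went from 3.42, 3.37, 3.24 and 2.92 to 4.49, 5.61, 4.94 and 5.4 (adjusted p = 0.000145). Marco, a scavenger receptor, rose by 1.36 by the ratio and by 2.89 by Cy5 alone, and Clec4f, a Kupffer cell lectin, did not pass (0.08). With median centring 3 of the 16 rose and with scale normalization 4 rose and 1 fell. Among 21 sinusoidal endothelial genes 2 rose and 2 fell (9.52% each, against 25.5% and 17.1% of all genes), with a median of 0.01. Lyve1, a hyaluronan receptor, fell from 5.65 ± 0.33 to 4.16 ± 0.09 (SD, n = 4), and that call was lost in the scanner software's log ratio (-1.13, adjusted p = 0.192) and with the marked spots kept (-1.41, adjusted p = 0.0882). Stab2, a scavenger receptor of the same cells, stood at 4.75 ± 0.11 and 4.76 ± 0.21.

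Of 22 stellate cell and fibroblast genes 5 rose and 2 fell (1 and 1 with median centring). Neither share was higher than the 25.5% and 17.1% over all genes. Col5a1, a collagen, was at -1.49 and Lrat, which stores vitamin A as esters, at 0.69. The call of Lrat was lost with median centring (0.45, adjusted p = 0.198) and with the marked spots kept (0.65, adjusted p = 0.296). Of 15 bile duct genes 2 rose (13.3%, against 25.5% of all genes), with Prom1, a surface protein of duct and progenitor cells, at 1.46. Among 12 genes of the exocrine pancreas 3 fell (25%, against 17.1% of all genes). Cela1, an elastase, fell by 2.55 from 1.86 ± 0.23 to -0.69 ± 0.04 (SD, n = 4). None of 9 skeletal muscle genes passed, with a median of 0.16. The mean ratio of the pancreas list lay between 0.41 and 0.83 at E18.5 and between 0.11 and 0.18 at P7.5. The part of pancreatic tissue in any result was not tested.

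**Figure D3:**
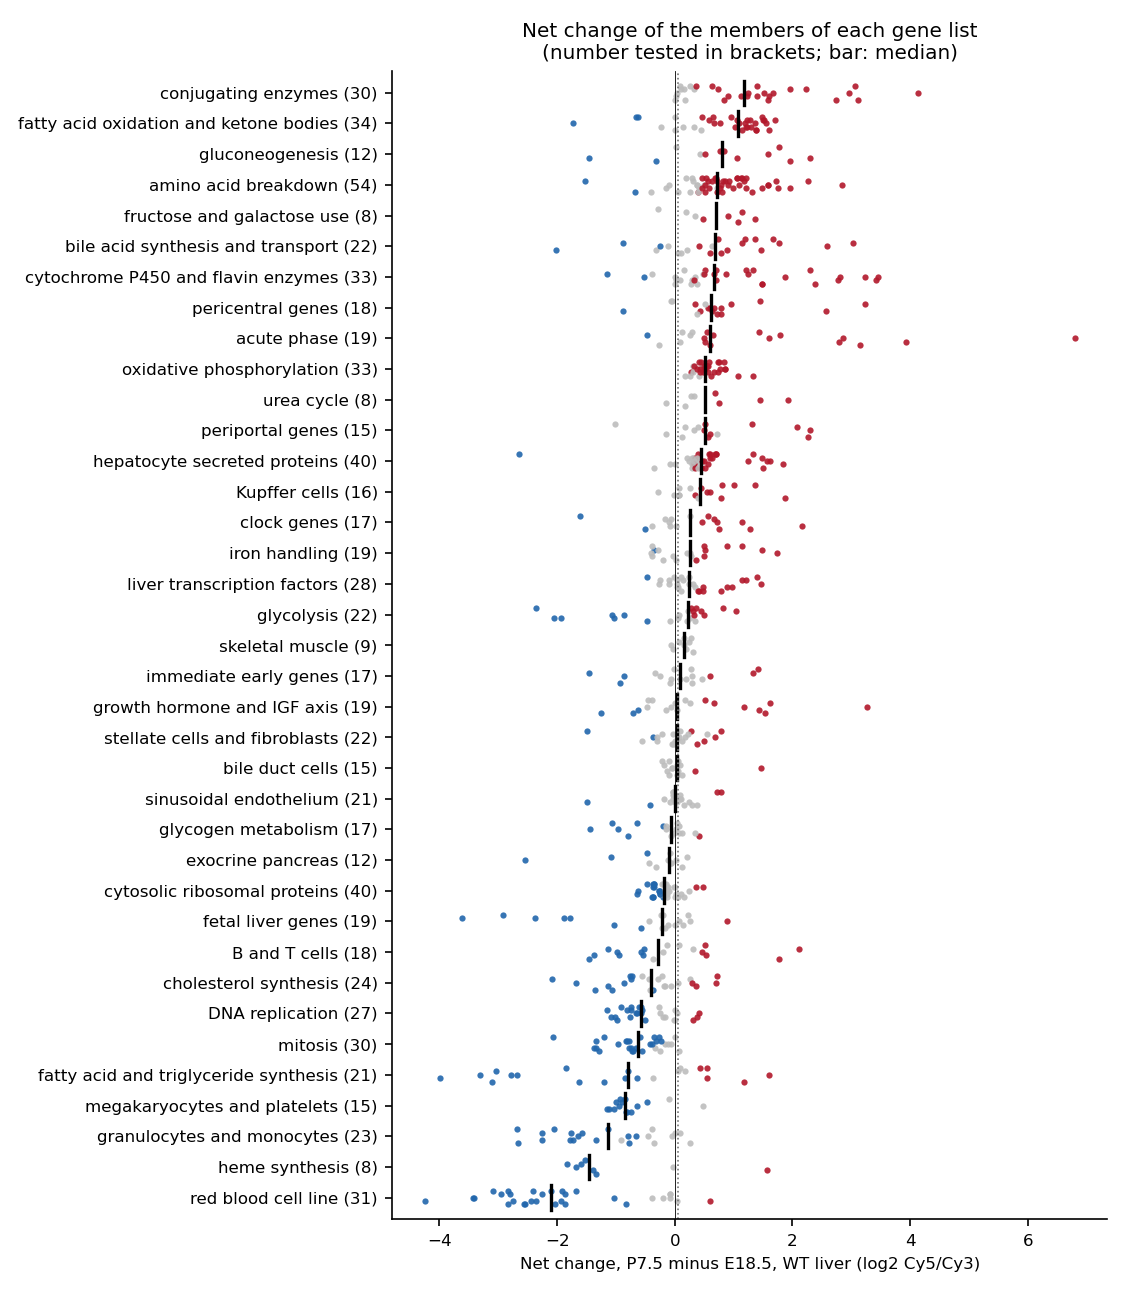
Net change (x axis, log2 Cy5/Cy3) of every tested member of 37 gene lists (y axis, number tested in brackets); red and blue members passed the test as higher or lower, grey members did not, black bars are list medians and the dotted line is the median of all genes, 0.05. The red blood cell line lies lowest at -2.11 and conjugating enzymes highest at 1.18.

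The classical fetal genes divided. Of 19 tested 7 fell and 1 rose (36.8% and 5.26%, against 17.1% and 25.5% of all genes, median -0.22). Dlk1, a surface protein of hepatoblasts, fell 12.3-fold from 1.31, -0.02, 0.89 and 1.82 to -2.39, -2.73, -2.81 and -2.55. Cd24a fell 7.58-fold, Lin28b, which blocks maturation of let-7 microRNA, 5.16-fold, and the imprinted gene Mest 2.04-fold. The call of Mest was lost with the marked spots kept (-0.97, adjusted p = 0.0701). Afp (alpha-fetoprotein) stood at 10.10, 10.04, 10.20 and 10.39 at E18.5 and at 10.27, 10.19, 10.22 and 10.61 at P7.5. These overlap, and the difference of 0.14 did not pass (adjusted p = 0.412; -0.01 by Cy5 alone). Igf2, the fetal growth factor, likewise did not pass at 0.26.

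Genes of cell division fell. Of 30 mitosis genes 23 were lower and none higher (median -0.62). Of the 30, 8 were already lower at P2.5 (11.4% of all genes were) and 20 were lower from P2.5 to P7.5 (14.6% of all genes). These comparisons share the P2.5 livers. Ccna2, cyclin A2, went from 0.34, 0.49, 0.52 and 0.78 to -0.86, -0.80, -0.68 and -0.85, a 2.52-fold fall without overlap (adjusted p = 3.53e-07). Nusap1, which binds spindle microtubules, fell by 1.34, Ube2c, which marks mitotic cyclins for destruction, by 1.29 and Ccnb2, cyclin B2, by 0.78. Mki67, the proliferation marker, fell by 2.07 with a wide spread at E18.5 (0.23 ± 0.78, SD, n = 4), and Cdc20, an activator of cyclin destruction, did not pass (0.08). Of 27 DNA replication genes 16 fell and 3 rose (median -0.57). No DNA replication gene rose by Cy5 alone. Mcm2, of the replicative helicase, fell by 1.09 and Cdc6, its loader, by 1.15. From E18.5 to P2.5 the list medians were -0.07 (mitosis) and -0.12 (DNA replication), and from P2.5 to P7.5 -0.51 and -0.38. The earlier and later medians were -0.83 and -1.32 for the red blood cell line and 0.08 and -0.59 for megakaryocytes and platelets. For granulocytes and monocytes they were -1.35 and 0.01. How much of the fall of the cell division genes lay in blood precursors was not tested.

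The promoters of Ccnb2 and Ube2c are shown because genes of late cell division are known to carry CCAAT boxes and the element TTTGAA close to their starts. Both letter strings, or ATTGG and TTCAAA on the other strand, are in capitals. Of the 4 mitosis genes with the lowest adjusted p, 3 had a RefSeq sequence and 2 of these held both. Ccnb2 is on chr9:70421555-70421804 (minus strand) with CCAAT at 82, 49 and 16 bases upstream. Its TTTGAA lies 161 bases upstream, farther from the start than its CCAAT matches. Ube2c is on chr2:164769679-164769928 (plus strand) with 6 matches to CCAAT on either strand, 2 of which overlap. Its match to TTTGAA lies 23 bases upstream on the other strand.
Ccnb2: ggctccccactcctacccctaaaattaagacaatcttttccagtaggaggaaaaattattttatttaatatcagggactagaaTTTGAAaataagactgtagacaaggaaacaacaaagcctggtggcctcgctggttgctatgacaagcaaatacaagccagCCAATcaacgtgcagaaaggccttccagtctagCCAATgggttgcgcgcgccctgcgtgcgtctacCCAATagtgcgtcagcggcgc
Ube2c: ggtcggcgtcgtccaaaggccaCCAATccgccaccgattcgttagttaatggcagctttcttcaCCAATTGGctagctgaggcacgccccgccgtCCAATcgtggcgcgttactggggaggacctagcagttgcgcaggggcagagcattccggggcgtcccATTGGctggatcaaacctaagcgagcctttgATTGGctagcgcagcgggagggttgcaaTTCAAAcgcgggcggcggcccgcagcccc
CCAAT was found in 34.5% and TTTGAA in 16.3% of all promoters of this length.

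Of 12 gluconeogenesis genes 8 rose and 2 fell (66.7% and 16.7%, against 25.5% and 17.1% of all genes, median 0.80). Pck1, the enzyme that commits substrate to glucose synthesis, was 5.51, 6.25, 6.30 and 4.04 in E18.5 livers and 7.65, 7.77, 7.8 and 8.11 at P7.5, with E18.5 replicate 4 far below its group and no overlap. The rise was 2.31 ± 0.43 by the ratio (adjusted p = 0.00071), 4.07 by Cy5 alone and 0.78 in the scanner software's log ratio (adjusted p = 0.0888). Tat, which feeds tyrosine carbon in, rose by 1.95, Ldhd, a lactate dehydrogenase, by 1.78 and Got1, an aminotransferase, by 1.58. G6pc, which releases free glucose, did not pass (0.43), and its transport partner Slc37a4 fell by 1.46. The rise of G6pc passed in 4 of 29 alternatives, among them the limma fit of only the 8 compared arrays (adjusted p = 0.00936). Of 17 glycogen genes 6 fell and 1 rose (35.3% and 5.88%, against 17.1% and 25.5% of all genes). Gbe1, the branching enzyme, was at -1.07 and Stbd1, a glycogen-binding protein, at -1.44, while Gys2, the liver synthase, stood at 0.12 (not passed).

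Glycolysis genes were mixed. Hk1, the hexokinase of red cells and many other tissues, fell 4.14-fold and Slc2a1, the glucose transporter of red cells, 3.80-fold. Over the 22 glycolysis genes 8 rose and 7 fell (36.4% and 31.8%, against 25.5% and 17.1% of all genes), with a median of 0.22. With median centring none rose and 7 fell. Slc2a2, the hepatocyte glucose transporter, rose by 0.33 (adjusted p = 0.0312), a call that was kept in 15 of 29 alternatives and that scale normalization turned to -0.09 (not passed). Of 8 genes for the use of fructose and of galactose, the latter a part of milk sugar, 5 rose, with Khk, fructokinase, at 1.37 and Galk1, galactokinase, at 1.08.

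Many transcripts of fat synthesis were lower at P7.5. Of 21 genes of fatty acid and triglyceride synthesis 12 fell and 5 rose (median -0.79). These were 57.1% and 23.8%, against 17.1% and 25.5% of all genes. Scd1, which puts the first double bond into stearate, went from 1.27, 0.74, 1.22 and 1.30 to -1.91, -2.03, -2.09 and -1.82, an 8.56-fold fall (adjusted p = 6.1e-09). Scd2, a second desaturase, fell 15.8-fold, Elovl6, an elongase, 8.24-fold, Lpin1, a phosphatidate phosphatase, 9.86-fold and Fasn, fatty acid synthase, 3.58-fold. All 4 Scd1 values at P2.5 were already low, with a mean of -2.04 ± 0.14 (SD, n = 4). Elovl5, which elongates polyunsaturated fatty acids, rose by 1.61, and Srebf1, the regulator of the pathway, stood at 2.0 ± 0.20 and 2.06 ± 0.23. Of 24 cholesterol synthesis genes 10 fell and 4 rose (41.7% and 16.7%, against 17.1% and 25.5% of all genes, median -0.40). Insig1, which holds sterol regulators back, fell by 2.09, while Sc5d, a late enzyme, rose by 0.70. The call of Sc5d was lost with median centring (0.55, adjusted p = 0.124).

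Of 34 fatty acid oxidation and ketone body genes 25 were higher and 3 lower (median 1.08), and 27 were already higher at P2.5, as were 16.1% of all genes. In the later step 6 rose, against 18.9% of all genes, and 6 fell. Cpt2, which delivers fatty acids inside mitochondria, went from 0.97, 0.71, 1.04 and 1.19 to 2.55, 2.38, 2.68 and 2.55, a 2.94-fold rise (adjusted p = 2.62e-07). Decr1, which handles unsaturated chains, rose 3.05-fold and Cpt1a, the gate of the pathway, 2.34-fold. Acadm, the medium-chain dehydrogenase, stood at 2.49 ± 0.27 and 2.49 ± 0.12 and did not pass. The 3 that fell were Acot1, an acyl-CoA thioesterase (-1.72), Angptl4, a lipase inhibitor (-0.62), and Cyp4a12a (-0.67), named after their values were seen. Of 33 oxidative phosphorylation genes 27 rose (81.8%, against 25.5% of all genes) and none fell (median 0.52). By Cy5 alone 17 rose and with median centring 3 did. Uqcrq of complex III (1.34) and Sdhb of complex II (1.08) were among the 27.

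Genes of amino acid breakdown rose widely: 38 of 54 were higher and 2 lower (median 0.71). By Cy5 alone 45 were higher and with median centring 25 were. Tdo2, which opens the tryptophan ring, went from 0.45, 0.24, 0.33 and 0.01 to 3.17, 2.08, 3.21 and 3.94, a 7.17-fold rise without overlap. Bckdhb, of the branched-chain keto acid dehydrogenase, rose 3.39-fold and Aldh4a1, of proline breakdown, 2.99-fold. Csad, which makes taurine from cysteine, fell by 1.53. Of 8 urea cycle genes 4 rose (50%, against 25.5% of all genes). Among them were Slc25a15, the mitochondrial ornithine carrier (1.93), and Otc (1.45). The rise of Otc was 0.52 and did not pass in the scanner software's log ratio. Cps1, the entry enzyme, did not pass (-0.14).

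Of 40 hepatocyte secreted proteins 24 rose and 1 fell (median 0.44), and 6 rose with median centring and 7 with scale normalization. The complement genes C8a and C9 rose by 1.51 and 1.62. The call of Alb was lost by Cy5 alone (0.08), with median centring (0.06) and with scale normalization (0.20). The rise of C8a did not pass in the scanner software's log ratio (0.55). Serpina3k, a serine protease inhibitor, fell by 2.64 by the ratio and by 4.31 by Cy5 alone, and stood at 0.65 (not passed) in the scanner software's log ratio. The inhibitor belongs to a cluster of close copies, so its probe may share signal with them.

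Among 19 acute phase genes 13 rose and 1 fell (68.4% and 5.26%, against 25.5% and 17.1% of all genes, median 0.59). Saa2, a serum amyloid A protein of acute inflammation, was the largest rise of all genes named, from 0.39, 0.68, 0.46 and 0.19 to 6.73, 7.30, 6.96 and 7.90, a 111-fold difference with no overlap (adjusted p = 2.77e-08). At P2.5 its mean was 1.72 ± 0.85 (SD, n = 4). Orm2 and Orm1, orosomucoids, rose 15.3-fold and 8.88-fold and Saa1 6.92-fold. The Saa and Orm genes are close copies whose probes may share signal. Cebpd, a regulator of the response, fell by 0.48 (named after its value was seen).

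Many drug-handling enzymes were higher. Of 30 conjugating enzymes 21 rose and none fell (median 1.18), and of 33 cytochrome P450 and flavin enzymes 20 rose and 2 fell (median 0.66). The latter count of rises was 12 with the marked spots kept and in the scanner software's log ratio. Sult1b1, a sulfotransferase, went from 2.21, 2.47, 2.33 and 2.12 to 4.93, 5.0, 4.89 and 5.31, a 6.72-fold rise (adjusted p = 8.41e-09). Ces1g, a carboxylesterase, rose 8.67-fold, Cyp4f14 10.9-fold and Cyp2b13 6.86-fold. Cyp1a2, a pericentral P450, rose 9.40-fold and already stood at 3.21 ± 0.26 (SD, n = 4) at P2.5 against 3.5 ± 0.38 at P7.5. Cyp2e1, which metabolizes ethanol, rose by 0.66 by the ratio and by 1.92 by Cy5 alone. Its call was lost in the scanner software's log ratio (0.52, adjusted p = 0.0554) and with scale normalization (0.32, adjusted p = 0.339). P450 and sulfotransferase genes lie in families of close copies, so single members are uncertain.

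Of 22 bile acid and sterol transport genes 13 rose and 3 fell (median 0.69). Cyp7a1, the rate-limiting enzyme of bile acid synthesis, went the other way, from 4.95, 4.08, 4.40 and 4.87 to 2.57, 1.91, 3.15 and 2.60, a 4.06-fold fall without overlap (adjusted p = 0.000388). Nr0b2, the nuclear receptor that represses Cyp7a1, rose by 1.46, and Cyp8b1, of the cholic acid branch, did not pass (0.64). Abcg5 and Abcg8, partners in sterol export into bile, rose 8.14-fold and 2.59-fold, Amacr, of side-chain shortening, 3.41-fold and Akr1c6, a steroid dehydrogenase, 6.0-fold.

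The growth hormone and insulin-like growth factor (IGF) list held 7 rises and 3 falls among 19 genes (median 0.04). These were 36.8% and 15.8%, where 25.5% of all genes rose and 17.1% fell. Igf1, the main postnatal growth factor made by liver, went from 1.51, 1.46, 1.40 and 1.45 to 4.74, 4.45, 4.97 and 4.74, a 9.66-fold rise with narrow groups far apart (adjusted p = 5.4e-08). Ghr, the growth hormone receptor, rose by 1.43, Igfals, which stabilizes circulating IGF, by 1.62 and Igfbp2, an IGF-binding protein, by 1.54, while Igf1r, the IGF receptor, fell by 1.26. Of 28 liver transcription factors 11 rose and 1 fell (39.3% and 3.57%, against 25.5% and 17.1% of all genes, median 0.25). With median centring 5 rose and 1 fell. Nr1i3, the xenobiotic receptor CAR, rose by 1.39, although that call was lost in the scanner software's log ratio (0.27), and Cebpb rose by 1.15.

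Of 18 pericentral genes 13 rose and 1 fell, and of 15 periportal genes 8 rose, where 25.5% of all genes were higher. In the scanner software's log ratio 6 pericentral and 4 periportal genes rose, and with median centring or scale normalization 7 and 4 did. Rhbg, an ammonium transporter of cells near the central vein, rose 5.93-fold, and the pericentral factor Tbx3 1.72-fold. Glul, glutamine synthetase of the same cells, rose by 0.43 with an adjusted p of 0.0417, and 12 of 29 alternatives lost the call. Median centring lost the call of Tbx3 (0.61, adjusted p = 0.0982). Ctsc (4.22-fold) and Sds, serine dehydratase (4.80-fold), were the periportal genes with the lowest adjusted p. The call of Sds was lost in the scanner software's log ratio (0.81, adjusted p = 0.0968). Of 17 clock genes 8 rose and 2 fell (47.1% and 11.8%, against 25.5% and 17.1% of all genes). Dbp was at 2.16 and Per1 at -1.61. The labels give no time of day, and its part was not tested. Of 40 ribosomal protein genes 19 fell and 2 rose (median -0.19), and 33 fell with median centring, while in the scanner software's log ratio 8 fell and 6 rose. Of 19 iron handling genes 8 rose and 1 fell (42.1% and 5.26%, median 0.26). Of 17 immediate early genes 3 rose and 3 fell (17.6% each, median 0.09). Over all genes 25.5% rose and 17.1% fell.

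Beyond the lists, the largest rises included Sult1c2, a sulfotransferase (48.9-fold, 3 measured P7.5 values), Inmt, an indole methyltransferase (35.3-fold), and Dio1, which activates thyroid hormone. Dio1 had the lowest adjusted p of the genes named (1.98e-10), with 0.53, 0.50, 0.56 and 0.50 at E18.5 and 4.97, 4.97, 5.15 and 5.26 at P7.5. Glyat, a glycine conjugating enzyme, rose 21.0-fold and the organic anion carriers Slc22a7 and Slc22a27 28.1-fold and 18.3-fold, Slc22a7 being well above background on 1 of 4 E18.5 arrays. Sult2a2 and Sult2a4 rose by 4.75 and 4.47, with probes that may share signal and with Sult2a2 measured on 3 of 4 E18.5 arrays. Prg4, lubricin, rose by 4.37 by the measured values, with no E18.5 array well above background.

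The largest falls were led by Serpina4-ps1, a pseudogene, from 4.98, 5.63, 4.80 and 4.78 to 0.25, 0.06, -0.16 and -0.18 (-5.05 ± 0.32, adjusted p = 1.41e-07), with 2 of 4 P7.5 arrays well above background. Hif3a, a hypoxia-inducible factor subunit, fell by 4.48 and Ndrg1, a stress-responsive gene, by 3.33. Slc36a2, an amino acid transporter, fell by 4.27, Rbp2, a retinol-binding protein, by 3.91, Hkdc1, a hexokinase-like protein, by 3.76 and Ggt1, a glutathione-degrading enzyme of fetal liver, by 3.57. Cyp4b1-ps2, a pseudogene, fell by 3.49 and Eif4ebp3, a translation repressor, by 3.37.

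A group of 5 genes among the 15 largest rises varied between livers of one age at P2.5. Cxcl10, a chemokine for T cells, was 1.83, 0.94, 1.62 and 0.49 in the E18.5 livers. The P2.5 livers read 1.27, 5.44, 0.33 and 6.83, and the P7.5 livers 6.64, 6.14, 5.23 and 7.0. All P7.5 livers were high and all E18.5 livers low, while at P2.5 replicates 2 and 4 were high and replicates 1 and 3 low. The net rise was 5.04 ± 1.13 (adjusted p = 0.00293). The SE and p pool the spread of all 12 WT livers, so the divided P2.5 livers widen them. The same holds for the other genes of this group. Cxcl9, a second T cell chemokine, rose by 4.72 and at P2.5 was 1.68, 4.95, 0.82 and 5.29. Ubd, a ubiquitin-like protein, rose by 4.52 (7.10 by Cy5 alone) and at P2.5 was 1.73, 3.99, 0.98 and 4.22. Gbp2, a guanylate-binding protein, rose by 4.21 and at P2.5 was 0.69, 4.19, 0.29 and 4.54, and Serpina3f, a protease inhibitor, rose by 4.16 and at P2.5 was -0.14, 2.47, -0.21 and 3.56. In all 5 the same P2.5 livers were high. These genes were set side by side after their values were seen.

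In the KO livers the P7.5 group was divided too. Cxcl10 was between -0.12 and 1.18 in the 4 KO livers at E18.5, then 3.66, 1.04, 6.26 and 1.82 in the P2.5 livers, followed by 7.01, 7.35, 1.99 and 2.24 in those of P7.5. Thus 2 of 4 KO livers at P7.5 were as high as the WT livers of that age and 2 were lower than all of them. Gbp2 ran alike, with 4.50, 4.46, 0.59 and 0.87 at P7.5. One of the high ones, the P7.5 library labelled KO replicate 2, had Gcgr at 5.02 where the other 11 KO livers lay between -0.01 and 0.38, which goes against its label. Without it Cxcl10 at P7.5 KO was 7.01, 1.99 and 2.24. KO arrays were on other slides than WT arrays and were scanned with another software version, so genotype and batch cannot be told apart.

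**Figure D4:**
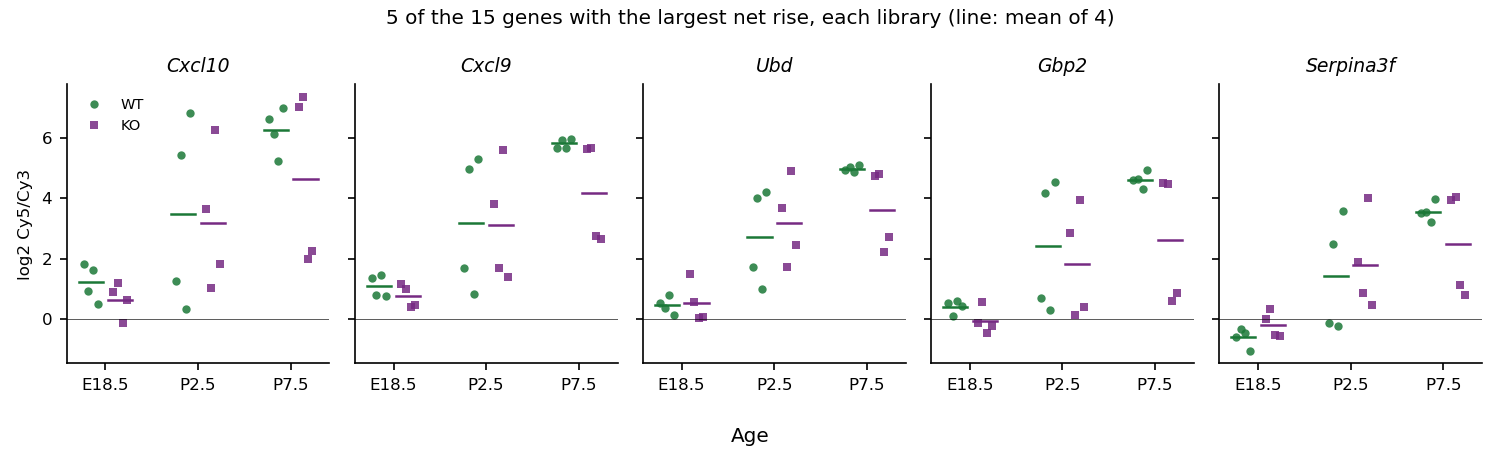
Log2 Cy5/Cy3 (y axis) of Cxcl10, Cxcl9, Ubd, Gbp2 and Serpina3f in each WT (green circles) and KO (purple squares) liver by age (x axis), with lines at the mean of 4. In WT all P7.5 livers are high, and at P2.5 2 of 4 are, with Cxcl10 at 5.44 and 6.83 against 1.27 and 0.33.

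The promoters of Cxcl10 and Gbp2 are shown because, of the 5 genes, these 2 held GAAA and a second GAAA with any 2 bases between them (TTTC and TTTC on the other strand), a pattern found in elements that respond to interferon. Cxcl10 is on chr5:92348890-92349139 (minus strand) with the match 203 bases upstream, and Gbp2 on chr3:142620413-142620662 (plus strand) with the match 49 bases upstream on the other strand.
Cxcl10: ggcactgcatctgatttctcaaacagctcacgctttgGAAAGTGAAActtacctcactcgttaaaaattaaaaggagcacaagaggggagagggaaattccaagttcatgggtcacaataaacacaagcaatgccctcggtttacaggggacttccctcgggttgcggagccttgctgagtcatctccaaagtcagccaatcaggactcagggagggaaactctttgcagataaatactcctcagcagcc
Gbp2: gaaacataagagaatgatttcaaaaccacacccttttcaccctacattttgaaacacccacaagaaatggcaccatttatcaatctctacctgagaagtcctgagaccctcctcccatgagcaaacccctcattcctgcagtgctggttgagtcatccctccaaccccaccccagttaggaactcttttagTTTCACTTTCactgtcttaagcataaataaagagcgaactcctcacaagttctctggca
The letters occur in 3.04% of all promoters of this length.

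Some genes moved after birth and then came back to the fetal level. A gene was counted as returned when both steps (E18.5 to P2.5 and P2.5 to P7.5) passed, were at least 2-fold and ran in opposite directions, and the 95% confidence interval of the net change lay within 2-fold. Both steps use the P2.5 livers, so chance variation there adds to both. Of 62 genes with opposite 2-fold steps 45 returned, 33 up then down (0.196% of all genes) and 12 down then up (0.0713%). The other 17 had an interval reaching past 2-fold, and in 9 of these the net change passed. Of the 45, Rnase2a (-0.53, adjusted p = 0.0285), Gng11 (-0.47, adjusted p = 0.00806) and Ms4a1 (0.52, adjusted p = 0.0122) had a net change that passed by the ratio although it lay within 2-fold, and their E18.5 and P7.5 values did not overlap. At the bound, the farther end of the interval was 0.99 for Igfbp5 and 1.0 for Fn1 inside and 1.04 for Epx and 1.06 for Saa3 outside. The steps chose these genes and are given as a description.

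Among the genes that went up and then down, Tmprss9, a membrane serine protease, was -0.60, -0.69, -0.52 and -0.64 before birth. It reached 1.99, 2.07, 1.56 and 0.97 in the P2.5 livers, and the P7.5 livers read -0.36, -0.34, 0.04 and 0.15. All of these lay above the E18.5 values, 2 of 4 E18.5 arrays were well above background, and the net change of 0.49 (adjusted p = 0.0733) passed in 6 of 29 alternatives, at 2.11 in the scanner software's log ratio (adjusted p = 0.00192). Retsat, a retinol saturase, went from 1.12 ± 0.14 to 2.79 ± 0.38 and to 1.49 ± 0.16 (SD, n = 4). Its P7.5 values all lay above its E18.5 values, and its net change of 0.37 (adjusted p = 0.081) passed in 2 of 29 alternatives. Ptprb, an endothelial phosphatase, rose by 1.45 and fell by 1.42, Fn1, fibronectin, rose by 1.42 and fell by 1.64, Hspg2, perlecan, rose by 1.33 and fell by 1.61, and Adgrf5, an adhesion receptor, rose by 1.43 and fell by 1.29. Fn1 at E18.5 was 0.33, -1.17, 0.45 and 1.02, and without replicate 2, the low one, its net change was -0.66 and passed (adjusted p = 0.0282). Ptprb lost both steps in the scanner software's log ratio. Ak4, an adenylate kinase, and Itpr2, a calcium channel, completed the 8 with the largest smaller step.

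Among the genes that went down and then up, Prg2, a granule protein of eosinophils, was 3.64, 4.14, 3.74 and 3.82 before birth. Its P2.5 values were 0.86, 1.62, 0.86 and 0.35, and its P7.5 values 3.62, 3.93, 3.80 and 4.02. The P2.5 livers lay far below both other ages. By Cy5 alone it fell by 6.12 and rose by 4.34, leaving a net change of -1.78 that passed. Of the granulocyte list, 3 further genes fell and then rose without meeting the rule, named after their values were seen: Ear6 fell by 3.28 and rose by 1.94, Epx fell by 2.10 and rose by 1.32, and Prg3 fell by 2.16 and rose by 1.03. Vpreb1 and Vpreb2, surrogate light chains of B cell precursors, fell by 2.07 and 1.47 and rose by 1.69 and 1.22. Fabp4, a fatty acid carrier of endothelium and fat cells, fell by 1.44 and rose by 1.91, and Car5a, the mitochondrial carbonic anhydrase, fell by 1.35 and rose by 1.43. The net change of Fabp4 (0.46, adjusted p = 0.0615) passed in 4 of 29 alternatives. Rnu2-10, Ankrd37 and Ifi27l2a were the others named. By Cy5 alone 39 genes returned, 25 of them shared with the ratio, and 9 of the 45 had a net change that passed.

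The same steps were read in the KO livers, which the rule did not use. Of the 33 genes that went up then down in WT, 8 passed both steps in that order in KO, against 4.37% of all genes. Of the 12 that went down then up, 1 did, against 6.35% of all genes. Leaving out that P7.5 library labelled KO replicate 2, the counts were 7 (4.55% of all genes) and 1 (7.07%). The first step of the 33 passed in the same direction in KO for 11 (17.1% of all genes rose there) and in the opposite direction for 7 (19.4% of all genes fell). The first step of the 12 passed in the same direction in KO for 6 and in the opposite direction for 1. Whether WT and KO differed was not tested, because the WT steps chose the genes.

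Car5a was the gene of the second set that followed WT, falling by 1.73 and rising by 2.04 in KO (adjusted p = 4.73e-05 and 1.38e-05). Without the doubtful library the rise of Car5a was 2.17. Tmprss9 rose by 1.64 and fell by 0.72 in KO (by 0.64 without that library). Fn1 ran the other way, with KO values of 1.44, 2.0, 1.70 and 1.55 at E18.5, then -0.14, 0.05, -0.51 and 0.48, and 1.27, 1.09, 1.79 and 1.68 in the P7.5 livers, with a fall by 1.70 and a rise by 1.49 (1.62 without that library). Prg2 lay between 3.42 and 3.97 in the 12 livers labelled KO, and between 3.51 and 3.97 without the doubtful library. Neither step passed, with or without it. Ptprb lay between 2.80 and 3.15 in KO at E18.5 and P2.5 and then rose by 1.77 (2.03 without that library).

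**Figure D5:**
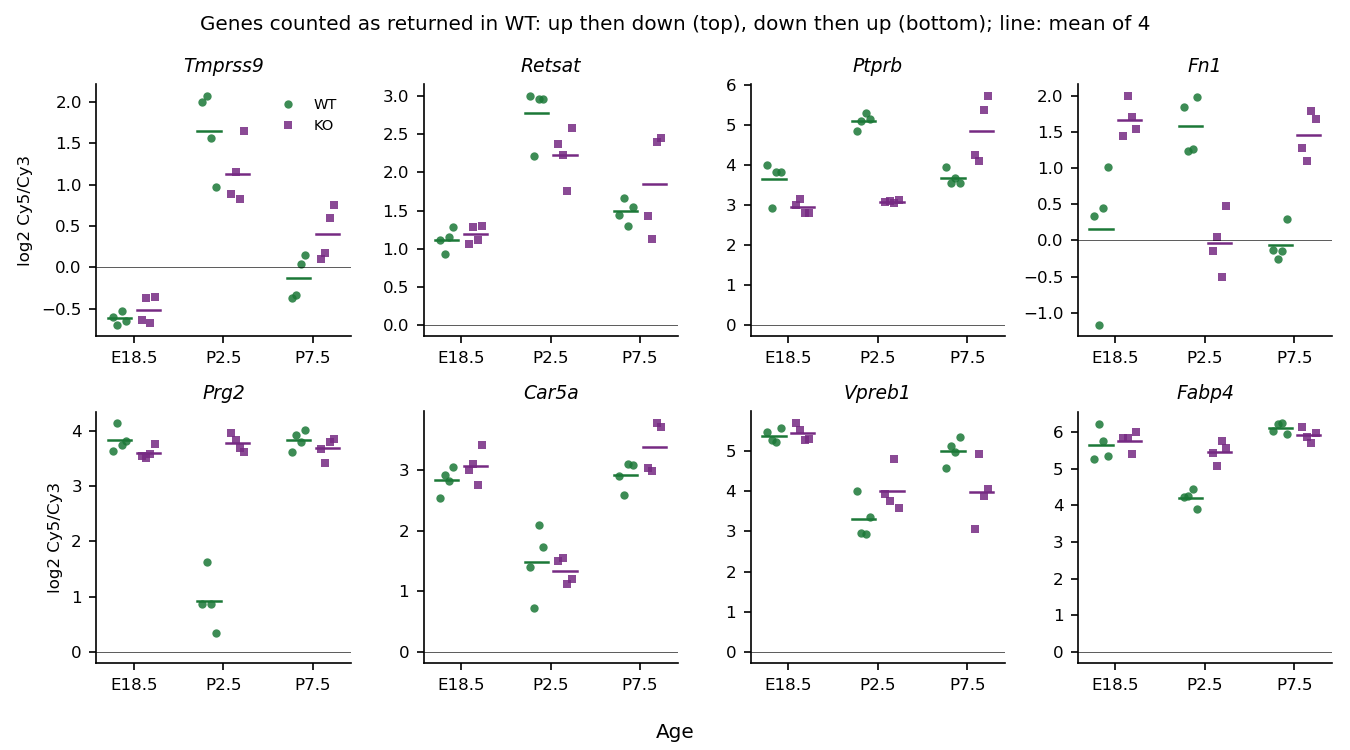
Log2 Cy5/Cy3 (y axis) by age (x axis) of 8 genes counted as returned in WT, up then down in the upper row and down then up in the lower row, in each WT (green circles) and KO (purple squares) liver, with lines at the mean of 4. Prg2 drops in WT at P2.5 to between 0.35 and 1.62 and lies between 3.42 and 3.97 in the livers labelled KO, with 3.42 in the P7.5 library whose Gcgr goes against its label.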

How the data were processed

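Liver RNA (Cy5) and Universal mouse reference RNA (Cy3) were hybridised together on Agilent arrays without dye swaps. Per the file headers, the authors read the scans with Feature Extraction 11.5.1.1 (WT) and 11.0.1.1 (KO). The median spot and background intensity values were used as deposited, where mean signals had been planned. The deposited log10 ratio of the scanner software served as an alternative. The authors' log2 series table correlated at 1 (rounded) on every array with the loess ratio computed here. It served as a check and, though counted among the 29 alternatives, is not an independent one. Background was corrected with normexp (offset 50) and dyes with loess in limma 3.58.1 (R 4.3.3), with control spots at weight 0 and spots marked as uneven or outlying left out.

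Of 39429 probes 26581 carried 1 gene symbol, giving 20144 genes, each represented by the probe with the brightest Cy5. A gene was tested (16830 were) when its Cy5 signal exceeded background clearly on 4 or more of 12 WT arrays. The 12 WT arrays were fitted as 3 groups and KO arrays separately. On simulated data with 16830 genes, net changes of 0.5, 1, 2 and 4 (log2) were recovered for 60%, 96%, 98% and 100% of 50 genes each. Unchanged genes made up 5.35% of the net calls there. Far fewer genes were changed than the 42.6% called in the data. The Benjamini-Hochberg cutoff depends on that share, so these rates are not the power in the data. Precision is limited by the 4 arrays a group.

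The gene lists and members were chosen with earlier results of these data known. Genes named were the 15 largest rises and 15 largest falls, up to 4 members per list with the lowest adjusted p, members stated as not passing, and 8 returned genes per direction. Genes outside this rule, such as Alb, Hbb-bt, Alas1, Mki67, Cpt1a, Tdo2, Cyp7a1, Serpina3k and Glul, were named after their values were seen. Livers older than P7.5 were not analysed here. Alternatives covered background, normalization, channels, filters, probe choice, slide, replicate block and single libraries left out. The test of Cy3 alone was added after seeing the data. Some genes are not reported here.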

Additional observations from a re-analysis of the deposited data

Results flagged for a closer look

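Single livers stood apart from the other 3 of their group in 9 of 352 groups examined (2.56%), where chance gives about 1 in 20. By log2 ratio these were Hbb-bt at 5.34 in P7.5 replicate 4 (highest), Hbb-y at 3.31 in E18.5 replicate 2 (highest), Mmp9 at 0.45 in E18.5 replicate 2 (lowest), Ccnb2 at 0.78 in E18.5 replicate 4 (highest) and Hk1 at -1.80 in P7.5 replicate 1 (lowest). The others were Scd1 at 0.74 and Elovl5 at -0.12 in E18.5 replicate 2 (both lowest), Abcg5 at 6.58 in P7.5 replicate 4 (highest) and Retsat at 2.21 in P2.5 replicate 2 (lowest). E18.5 replicate 2 accounted for 4 of the 9. In the reference channel, Cy3 alone passed the test between the ages for 296 genes, and the cause was not tested.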

How the results depend on the processing

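Over 29 settings, 159 of 201 gene results kept their call in every one, and of 5765 values 56 were no longer past the threshold, 42 newly past it and 5 of opposite sign with at least 1 side past it (sign changes with neither side past it are not counted). The 5 were Kel (0.20) and Serpina3k (0.65) in the scanner software's log ratio, Hbb-bt (-1.32) and Prg2 (-1.78) by Cy5 alone, and Slc2a2 (-0.086) with scale normalization. Median centring gave 3657 net calls, 1271 higher, 573 higher by at least 2-fold and 7 genes returned down then up, and the scanner software's log ratio gave 1171 genes lower by at least 2-fold. Keeping the marked spots left 7 genes returned down then up. Steps of at least 1.5-fold gave 231 returned genes (188 up then down and 43 down then up), and a net interval within 1.5-fold gave 15 (13 and 2). Leaving out 1 library gave 6320 to 7852 net calls (3785 to 4696 higher, 2470 to 3257 lower, 842 to 919 and 606 to 671 by at least 2-fold) and 36 to 55 returned genes (24 to 42 and 10 to 14). With the replicate number as a block 7166 genes passed and 43 returned, 42 of them shared. The deviations of same-numbered livers from their group means correlated at -0.06 to 0.22. Such weak correlations cannot tell whether the numbers pair the livers. With slide as a fixed block 6755 and as a random block 7329 genes passed. Gcgr passed by Cy5 alone (adjusted p = 0.0411), with array weights (0.00227) and without E18.5 replicate 2 (0.0143), all by limma. Over all settings the rises ranged from 5 to 9 of the gluconeogenesis, 5 to 14 of the transcription factor, 2 to 5 of the urea cycle, 8 to 15 of the acute phase, 4 to 10 of the iron and 2 to 9 of the clock genes. Where causes are not stated, the cause was not tested.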
